A study of Mus musculus with 6 samples.

Results

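SR proteins, heterogeneous nuclear ribonucleoproteins (hnRNPs) and the kinases of SR proteins were followed in 6 RNA-seq libraries of RFB cells, labelled as a fibroblast line from kidney. Rows were taken by gene symbol: those starting with SRSF, HNRNP, SRPK or CLK with its family number, together with both TRA2 genes, the PTBP genes, PCBP1, PCBP2, ELAVL1 and SYNCRIP. This gave 58 rows, with 55 distinct symbols, among the 20323 gene rows of the deposited table. Cells of 3 libraries were given TGF-β together with CXCL10, added as 5 µl at a concentration the labels do not state, and cells of the other 3 were given TGF-β without CXCL10. TGF-β drives fibroblasts toward a fibrotic state, and CXCL10 is a chemokine. Cells without TGF-β are not among these groups, and the labels name no treatment time and no genotype, although a SUV39H1 knockdown appears in the design text of the series. The labels call the organism mouse, while every row carries a human Ensembl identifier, so levels are levels on human gene models.

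SR proteins carry RNA recognition motifs and a domain rich in arginine and serine. They bind exonic sequences, recruit the spliceosome and mostly favour inclusion of the exon they bind. SRPK kinases phosphorylate this domain in the cytoplasm, which allows nuclear import, and CLK kinases phosphorylate it further in the nucleus. The hnRNPs coat nascent transcripts, often oppose SR proteins at exons, and also act in mRNA export, stability and translation. Many genes of both families limit their own protein level by switching to a spliced form that is degraded by nonsense-mediated decay. Counts per gene do not separate such forms from coding mRNA.

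The libraries held 12838106 to 15587409 counts, and 3 counts, the limit that a count of 0 allows, equal 0.192 to 0.234 CPM (counts scaled to a common library size), for counting error only. The fibroblast genes COL1A1, COL1A2, COL3A1, PDGFRB and VIM were abundant, with COL1A1 at 29921 to 33811 CPM in CXCL10 libraries and 32290 to 38436 CPM in TGF-β libraries. EPCAM and PTPRC, which mark epithelial and blood cells, stayed at or below 0.56 CPM, CLDN3 was at 0 in every library, and the simple keratins KRT8 and KRT18 were at 991 CPM or more. Over all libraries the epithelial markers KRT19 and PAX8 held 176 to 239 CPM and 5.91 to 8.69 CPM. MUC1 held 5.34 to 13.1 CPM and CDH1 0.21 to 3.68 CPM. The 8 epithelial markers together summed to 3386 to 3675 CPM in CXCL10 libraries and 3135 to 3656 CPM in TGF-β libraries, and of the 6 tested, KRT18 and KRT19 rose while CDH1 and MUC1 fell in the paired fit described below. The 10 fibroblast markers summed to 50367 to 54653 CPM in CXCL10 libraries and 52716 to 60171 CPM in TGF-β libraries, and VIM and THY1 rose while LUM, DCN and COL1A1 fell in that fit. Endothelial markers, nearly all TEK, summed to 47.9 to 51.9 CPM in CXCL10 libraries and 50.4 to 51.5 CPM in TGF-β libraries. Immune markers, nearly all CD68, summed to 38.1 to 44.9 CPM in CXCL10 libraries and 36.3 to 42.1 CPM in TGF-β libraries. Only 2 endothelial rows and 1 immune row had enough counts to be tested, and 0 of them were called. In the paired fit 17.7% of all tested genes were called either way, which is also the background of the 6 epithelial and 11 fibroblast rows tested. The part of these genes in the results was not tested, and in bulk RNA fewer cells of a type cannot be told apart from less RNA per cell. TGF-β replicate 1 stood apart from the other TGF-β libraries along the first principal component (48.4% of the variance), where it lay at -5.54, against 28.3 and 29.5 for TGF-β replicates 2 and 3 and -32.8, -9.78 and -9.67 for the CXCL10 libraries. Whether replicates were separate cultures is not stated in the labels, so p-values measure only the spread between these libraries, which may be technical.

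With CXCL10 the levels of these genes differed little from those with TGF-β alone. Of the 58 rows, 51 had enough counts to be tested. Of these, 0 passed in the unpaired test (edgeR quasi-likelihood, smallest adjusted p = 0.162), in which 0 of all 11970 genes passed (0.0% called) and 2449 genes had an unadjusted p under 0.05 (20.5%), 4 of them members. In the fit that pairs libraries by replicate number, SRSF3, HNRNPAB, SYNCRIP and PTBP1 rose and 0 members fell. That is 4 of 51 (7.84%), beside 9.71% of all tested genes called higher, 8.04% called lower and 17.7% called either way, so the share of members called higher was no larger than the background. With library totals in place of TMM scaling the paired calls over all genes were 7.33% higher and 11.4% lower, and SRSF3, HNRNPAB and SYNCRIP were higher. DESeq2 with the same pairing called these 3 as well, with 5.8% of the 11128 genes that it gave an adjusted p called higher and 3.59% lower, and without pairing it called 0 members (1.6% of 10215 genes higher, 1.36% lower). RLE size factors with pairing added HNRNPR to the first 4 (10.2% of genes higher, 8.09% lower), and pairing without a filter on low counts added HNRNPDL, HNRNPR and SRSF9 (8.86% higher, 6.66% lower). The authors' deposited table called 0 members at an adjusted p under 0.05, beside 1.03% of all 20323 genes, with SRSF3 lowest at 0.138. It gave 3 of the 58 members an unadjusted p under 0.05. The share of all genes under that unadjusted limit was not computed, so this count has no background.

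The sizes of change were bounded closely for most of these genes. In the unpaired fit the 95% interval of the log2 change lay within 1.5-fold in either direction for 46 of 51 tested members, against 63.6% of all tested genes. Interval width depends on the level of a gene, and this share was not computed for genes of matched level. The other 5 members were CLK4, SRPK3, PTBP2 and the low second rows of SYNCRIP and SRSF1. Of the 51 tested members 46 averaged 5 CPM or more, as did 9705 of the 11970 genes. Among these 46 the largest difference was 1.24-fold (HNRNPAB), and 25 of the 46 differed by under 0.1 on the log2 scale. Of all genes at 5 CPM or more 37.9% did so, a share that was not matched for level either. The median log2 change was 0.021 over the 51 members and -0.0064 over all tested genes.

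**Figure D1:**
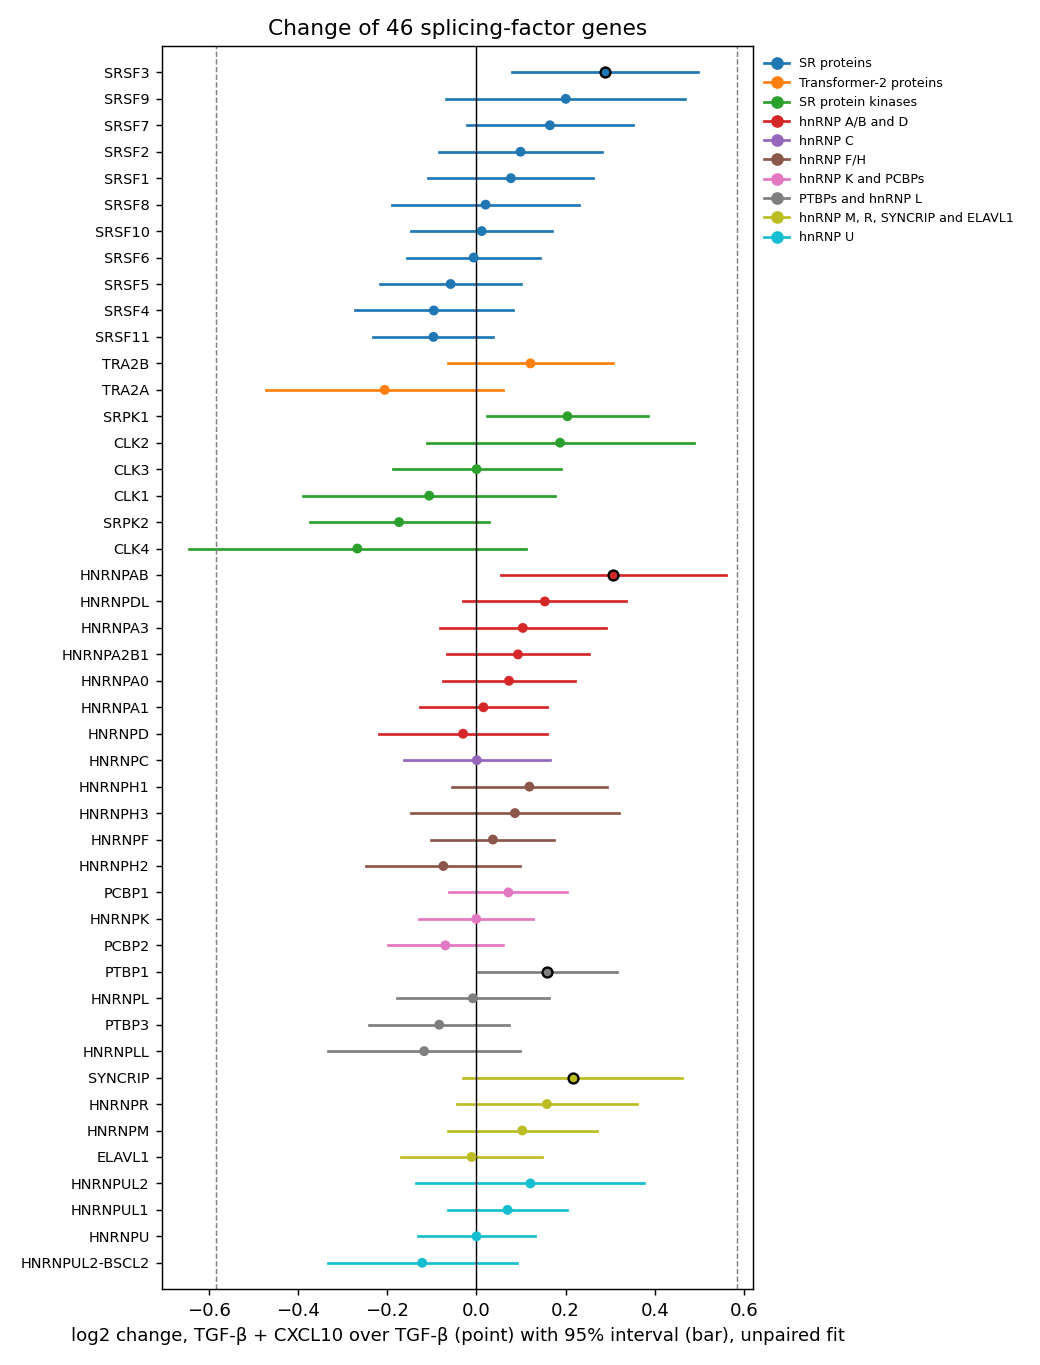
Log2 change of the 46 members with a mean of at least 5 CPM, TGF-β with CXCL10 over TGF-β, from the unpaired edgeR fit, with 95% intervals as bars and colours for the gene classes. Black rings mark SRSF3, HNRNPAB, PTBP1 and SYNCRIP, which passed in the paired fit, and dashed lines mark a 1.5-fold change; CLK4 has the only bar in the plot that crosses one of these lines.

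Among the SR proteins SRSF3 was the only gene called. SRSF3, the smallest SR protein and an adaptor for mRNA export, held 140, 133 and 131 CPM in the CXCL10 libraries, against 128, 101 and 102 CPM in the TGF-β libraries. The groups did not overlap in CPM, with TGF-β replicate 1 close to the CXCL10 libraries. The log2 change was 0.29 (SE 0.09, adjusted p = 0.162 unpaired; SE 0.06, adjusted p = 0.00416 paired, edgeR). SRSF7, a close relative that also takes part in export, held 54.9, 52.9 and 52.4 CPM with CXCL10 and 51.8, 44.3 and 46.8 CPM with TGF-β alone. These groups did not overlap either, and the difference of 0.16 (SE 0.08) did not pass (edgeR adjusted p = 0.294 unpaired and 0.129 paired). SRSF9, related to SRSF1, held 59.9, 55.7 and 56.5 CPM with CXCL10, against 60.5, 45.2 and 44.2 CPM with TGF-β alone, so that TGF-β replicate 1 was the highest library of all.

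SRSF11, a larger SR-related protein, was the only SR gene whose CXCL10 libraries all lay below the TGF-β libraries, at 100.3, 101 and 101 CPM with CXCL10, against 105, 109 and 110 CPM with TGF-β alone. This difference of -0.10 on the log2 scale (SE 0.06) did not pass (edgeR adjusted p = 0.386 unpaired, 0.242 paired). For SRSF1, the founding member that acts at splice site choice, the libraries held 164, 156 and 152 CPM with CXCL10 and 168, 143 and 137 CPM with TGF-β alone. The remaining SR proteins had overlapping groups. SRSF2, the SR protein with the highest FPKM, held 161, 144 and 143 CPM with CXCL10, against 152, 128 and 138 CPM with TGF-β alone. The 95% intervals all included 0, from -0.16 to 0.14 for SRSF6, -0.15 to 0.17 for SRSF10, -0.22 to 0.10 for SRSF5, -0.27 to 0.08 for SRSF4, -0.19 to 0.23 for SRSF8 and -0.08 to 0.28 for SRSF2. Counting every class, 4 of 51 tested members were higher and 2 lower without overlap between the groups, beside 11.1% and 11.2% of all tested genes. These were SRSF3, SRSF7, PTBP1 and SRPK1 upward and SRSF11 and SRPK2 downward.

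The Transformer-2 proteins, SR-like activators that bind GA-rich exons, had differences of opposite sign. TRA2B held 82.0, 79.8 and 80.4 CPM with CXCL10, against 82.8, 70.2 and 69.8 CPM with TGF-β alone. TRA2A held 19.7, 25.0 and 23.7 CPM with CXCL10, against 29.0, 24.5 and 25.4 CPM with TGF-β alone. The groups overlapped for both genes, with TGF-β replicate 1 the highest library for each. Their log2 differences were 0.12 (SE 0.08) and -0.21 (SE 0.12), and neither passed (edgeR adjusted p = 0.427 and 0.351 unpaired).

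None of the 7 tested SR protein kinases was called in either fit. SRPK1, the widely expressed cytoplasmic kinase, held 50.6, 49.0 and 52.1 CPM with CXCL10 and 46.8, 41.6 and 43.3 CPM with TGF-β alone (log2 difference 0.20, SE 0.08; edgeR adjusted p = 0.206 unpaired and 0.0690 paired). SRPK2 had the opposite sign, with 32.7, 34.0 and 30.8 CPM with CXCL10, against 34.4, 39.1 and 36.3 CPM with TGF-β alone (log2 difference -0.17, SE 0.09; edgeR adjusted p = 0.302 and 0.172). For both kinases the groups did not overlap. Of the CLK kinases, CLK2 held 17.3, 19.7 and 21.4 CPM with CXCL10 and 19.4, 17.2 and 14.6 CPM with TGF-β alone. CLK4 held 7.03, 7.03 and 9.51 CPM with CXCL10, against 10.2, 8.65 and 9.54 CPM with TGF-β alone, and its interval was wide, from -0.64 to 0.11. CLK3, the kinase with the highest FPKM, held 33.1, 35.4 and 32.7 CPM with CXCL10, against 34.4, 34.4 and 32.3 CPM with TGF-β alone (interval -0.19 to 0.19), and CLK1 also had overlapping groups (interval -0.39 to 0.18). SRPK3, a kinase of muscle, had 6 to 21 counts in CXCL10 libraries and 10 to 29 counts in TGF-β libraries, and its interval was the widest of the kinases.

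Among hnRNPs of the A/B and D type, which carry a pair of RNA recognition motifs and a glycine-rich tail, HNRNPAB was called. It held 188, 154 and 148 CPM with CXCL10, against 151, 118 and 128 CPM with TGF-β alone. Replicate 1 was the highest library of each group, and the groups overlapped, since TGF-β replicate 1 lay above CXCL10 replicate 3. The log2 change was 0.31 (SE 0.11, adjusted p = 0.188 unpaired; SE 0.05, adjusted p = 0.00133 paired, edgeR). HNRNPAB was also the only member that limma-trend on paired log2(FPKM + 1) values called, beside 2.82% of all genes called higher and 2.94% lower (2.77% and 2.9% with a pseudocount of 0.1).

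HNRNPDL, an hnRNP D relative, held 174, 157 and 166 CPM with CXCL10, against 166, 143 and 138 CPM with TGF-β alone, a log2 difference of 0.15 (SE 0.08) that passed in neither fit (edgeR adjusted p = 0.314 unpaired, 0.0595 paired). HNRNPD itself, also known as AUF1, which promotes decay of mRNAs with AU-rich elements, held 82.1, 83.8 and 79.5 CPM with CXCL10 and 92.5, 82.8 and 75.2 CPM with TGF-β alone. HNRNPA1, a classical splicing repressor, held 324, 329 and 333 CPM with CXCL10, against 342, 331 and 303 CPM with TGF-β alone. Its close copy HNRNPA1L2 stood at 3.07 to 4.42 CPM with CXCL10 and 3.17 to 4.13 CPM with TGF-β alone, and reads could be shared between them. HNRNPA2B1, HNRNPA3 and HNRNPA0 had overlapping groups, and their intervals ran from -0.07 to 0.25, -0.08 to 0.29 and -0.07 to 0.22.

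Among genes with an HNRNP symbol outside that class, HNRNPK, HNRNPU and HNRNPC were the most abundant in CPM and showed narrow limits. PTBP1, more abundant in CPM than HNRNPU and HNRNPC, is described further below. HNRNPK, which binds C-rich RNA through KH domains, held 451, 423 and 433 CPM with CXCL10, against 450, 427 and 430 CPM with TGF-β alone (interval -0.13 to 0.13). HNRNPU, a nuclear scaffold protein, held 245, 246 and 252 CPM with CXCL10, against 255, 251 and 238 CPM with TGF-β alone (interval -0.13 to 0.13). HNRNPC, which binds uridine tracts on nascent RNA, held 206, 200.4 and 210.1 CPM with CXCL10, against 224, 204 and 189 CPM with TGF-β alone (interval -0.16 to 0.16). In each of these the groups overlapped.

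The poly(C)-binding proteins gave 220, 208 and 204 CPM for PCBP1 with CXCL10, against 199.7, 197 and 204 CPM with TGF-β alone. PCBP2 gave 256, 255 and 246 CPM with CXCL10, against 255, 271 and 268 CPM with TGF-β alone. Neither passed (edgeR adjusted p = 0.513 and 0.516 unpaired). Of the F/H proteins, which bind G tracts, HNRNPH1 held 146, 144 and 136 CPM with CXCL10 and 141, 134 and 118 CPM with TGF-β alone (log2 difference 0.12, SE 0.08; edgeR adjusted p = 0.409 unpaired). HNRNPF, HNRNPH2 and HNRNPH3 had intervals of -0.10 to 0.17, -0.25 to 0.10 and -0.15 to 0.32. HNRNPUL2 shares its locus with the readthrough row HNRNPUL2-BSCL2, and their log2 differences had opposite signs, at 0.12 (SE 0.11) and -0.12 (SE 0.09). The related HNRNPUL1 had overlapping groups (interval -0.06 to 0.20). How reads were divided between HNRNPUL2 and its readthrough row is not given in the sources used here. Summed, HNRNPUL2 and its readthrough row held 118, 119.7 and 123 CPM with CXCL10 and 125, 119.8 and 118 CPM with TGF-β alone, with overlapping groups.

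PTBP1, which binds pyrimidine tracts and represses many exons, was called in the paired fit. It held 391, 342 and 351 CPM with CXCL10, against 331, 308 and 331 CPM with TGF-β alone. The groups did not overlap in CPM, and TGF-β replicate 1 was level with replicate 3. The log2 change was 0.16 (SE 0.07, adjusted p = 0.235 unpaired; SE 0.05, adjusted p = 0.0396 paired, edgeR). The call was lost with DESeq2, limma-trend and library totals, and without replicate 2 or replicate 3. PTBP2, the neuronal relative that PTBP1 represses, was low, at 4.71, 4.19 and 3.75 CPM with CXCL10, against 5.07, 4.85 and 4.58 CPM with TGF-β alone. PTBP3 held 73.6, 69.3 and 69.1 CPM with CXCL10 and 77.2, 71.7 and 75.9 CPM with TGF-β alone. The groups overlapped for PTBP2 and PTBP3, and for HNRNPL (interval -0.18 to 0.16) and HNRNPLL (-0.33 to 0.10), which bind CA-rich RNA.

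SYNCRIP, also called hnRNP Q, acts in mRNA stability, translation and transport. It held 222, 179.9 and 183 CPM with CXCL10, against 194, 154 and 156 CPM with TGF-β alone. Replicate 1 was the highest of each group, and TGF-β replicate 1 lay above CXCL10 replicates 2 and 3, while each pair of same-numbered libraries was higher with CXCL10. The log2 change was 0.22 (SE 0.11, adjusted p = 0.294 unpaired; SE 0.05, adjusted p = 0.00684 paired, edgeR). Its paralog HNRNPR held 133, 121 and 118 CPM with CXCL10, against 124, 110.0 and 98.8 CPM with TGF-β alone (log2 difference 0.16, SE 0.09; edgeR adjusted p = 0.347 unpaired, 0.0556 paired). HNRNPM had overlapping groups, with a log2 difference of 0.10 (SE 0.07). ELAVL1, known as HuR, which stabilises mRNAs with AU-rich elements, held 65.2, 60.2 and 63.6 CPM with CXCL10, against 62.6, 62.9 and 65.0 CPM with TGF-β alone (interval -0.17 to 0.15).

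**Figure D2:**
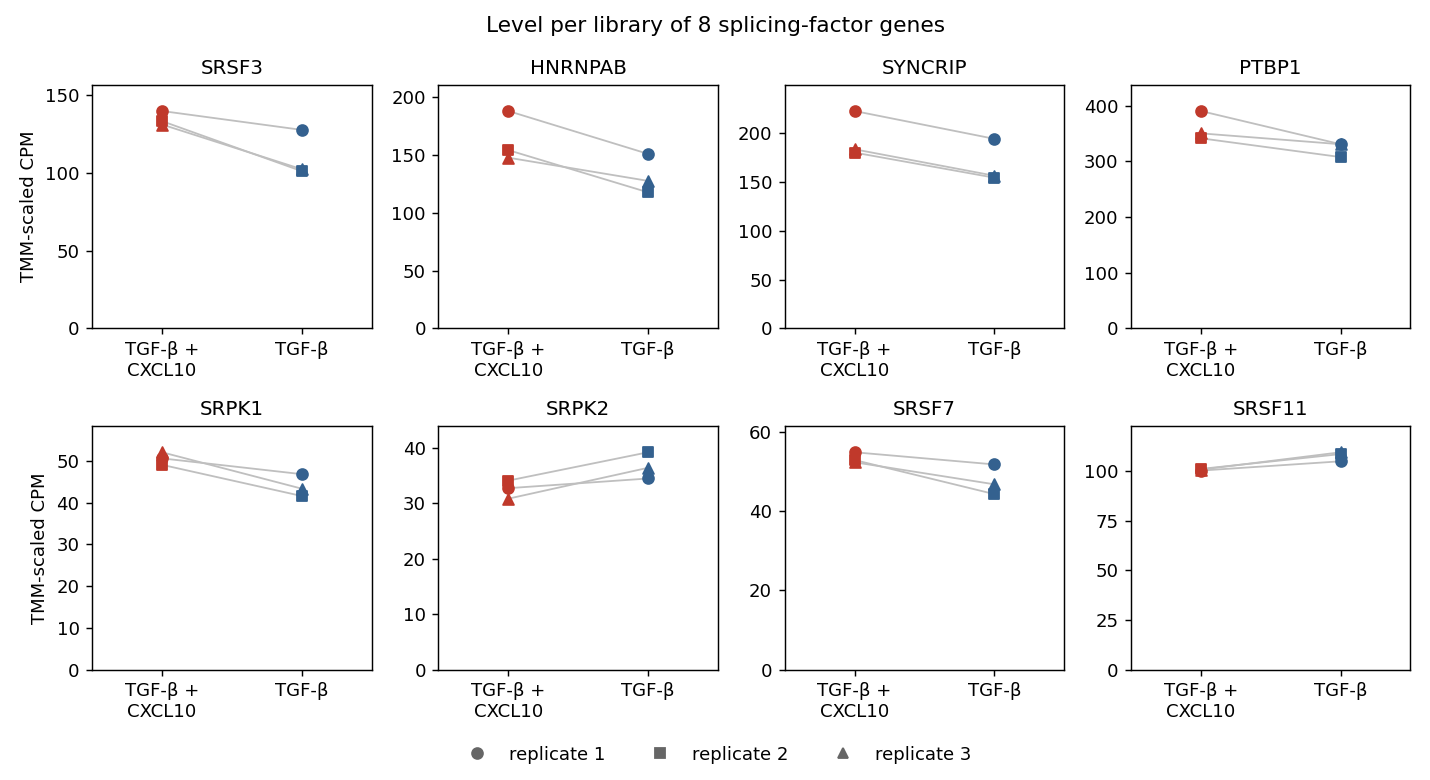
TMM-scaled CPM in each library of the 4 members called in the paired fit (SRSF3, HNRNPAB, SYNCRIP and PTBP1) and of 4 members whose groups did not overlap but that were not called (SRPK1, SRPK2, SRSF7 and SRSF11). Grey lines join same-numbered libraries. Replicate 1 (circles) is the highest CXCL10 and the highest TGF-β library for SRSF3, HNRNPAB, SYNCRIP and the uncalled SRSF7, at 140 and 128 CPM for SRSF3.

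The rows left untested were at or near 0. SRSF12, HNRNPCL2, HNRNPCL3 and HNRNPCL4 had 0 counts in every library. HNRNPCL1 had 2 counts in TGF-β replicate 2 only, the pseudogene HNRNPA1P48 had 2 counts in CXCL10 replicate 3 and 1 in TGF-β replicate 3, and a second HNRNPL row had 5 counts in CXCL10 replicate 1 only. The second SYNCRIP row, annotated in the table as a SYNCRIP-SNX14 readthrough, held 1.55, 2.53 and 2.02 CPM with CXCL10, against 0.422, 2.37 and 6.16 CPM with TGF-β alone. The second SRSF1 row held 3.58, 2.53 and 3.22 CPM with CXCL10, against 1.13, 3.67 and 3.60 CPM with TGF-β alone. Reads of these second rows could be shared with the principal ones.

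By level per length, in the authors' FPKM, HNRNPA1 and HNRNPK led. HNRNPA1 averaged 210.0 ± 4.0 FPKM with CXCL10 and 214 ± 12.7 FPKM with TGF-β alone (SD, n = 3 each), and HNRNPK 206 ± 6.9 FPKM with CXCL10 and 211 ± 3.0 FPKM with TGF-β alone, so that these neighbours did not differ beyond their spread. PCBP2 followed at 162 ± 3.0 FPKM with CXCL10 and 176 ± 9.0 FPKM with TGF-β alone. In CXCL10 libraries HNRNPC averaged 130.3 ± 1.4, PCBP1 120.1 ± 4.4 and PTBP1 117 ± 7.5 FPKM, against 133 ± 9.7, 118 ± 2.7 and 109 ± 4.9 FPKM for the same genes in TGF-β libraries. PCBP1 and PTBP1 were again within their spread of each other in CXCL10 libraries. Among SR proteins SRSF2 was highest, at 89.8 ± 9.8 FPKM with CXCL10 and 81.5 ± 13.4 FPKM with TGF-β alone, and SRSF8, an SRSF2-like copy, lowest among those at 5 CPM or more, at 10.7 ± 3.4 FPKM with CXCL10 and 10.9 ± 1.0 FPKM with TGF-β alone. The kinases lay below every SR protein at that level by mean FPKM except SRSF8, from CLK3 at 17.3 ± 1.4 FPKM with CXCL10 and 18.8 ± 1.1 FPKM with TGF-β alone down to CLK4 at 3.4 ± 0.7 FPKM with CXCL10 and 4.2 ± 0.4 FPKM with TGF-β alone among those at 5 CPM or more. In FPKM the groups did not overlap for SRPK1 and SRSF7, higher with CXCL10, and for SRPK2, SRSF11, PCBP2, SRSF4, PTBP3, HNRNPH2 and ELAVL1, lower with CXCL10. That is 2 and 7 of 51 tested members, beside 7.67% higher and 12.8% lower over all tested genes. SRSF3 and PTBP1, which did not overlap in CPM, overlapped in FPKM, while PTBP3, PCBP2, SRSF4, HNRNPH2 and ELAVL1 overlapped in CPM only. FPKM follow library totals, whereas CPM carry TMM factors of 0.983 to 0.986 in CXCL10 libraries and 0.996 to 1.031 in TGF-β libraries. This scaling alone sets FPKM lower with CXCL10 relative to CPM. For HNRNPH2 the length implied by FPKM, described below, was 2294 to 2298 bases in every library, so its 2 measures differ by scaling. PTBP3 averaged 10.8 ± 0.32 FPKM with CXCL10 and 12.4 ± 0.61 FPKM with TGF-β alone (SD, n = 3 each). All members together took 0.563%, 0.537% and 0.540% of counts in CXCL10 libraries, against 0.559%, 0.538% and 0.524% in TGF-β libraries, with overlapping groups.

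**Figure D3:**
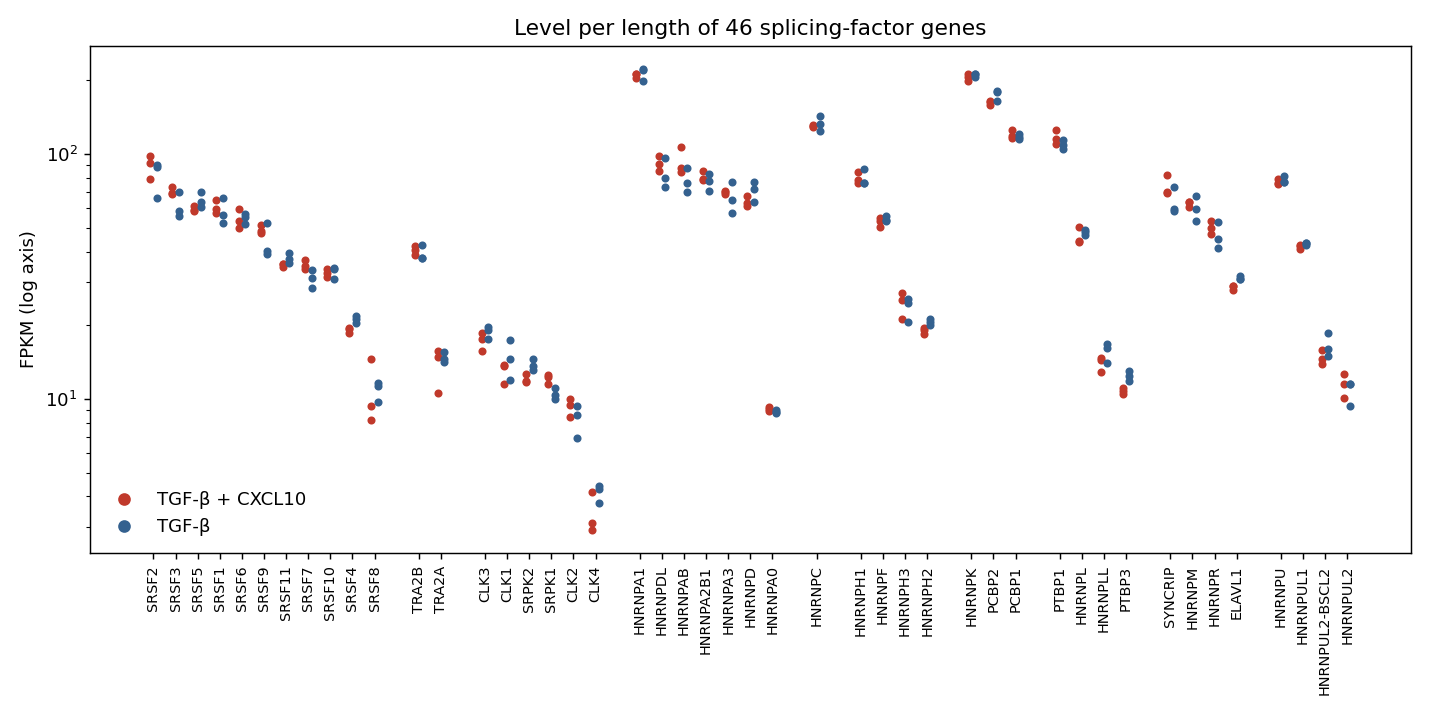
FPKM per library (log axis) of the 46 members with a mean of at least 5 CPM, grouped by class and ordered by mean level, with TGF-β + CXCL10 libraries in red on the left and TGF-β libraries in blue on the right of each gene. HNRNPA1 and HNRNPK lie near the top and CLK4 at the bottom, and the red points lie below all blue points for 7 genes, among them ELAVL1 and PTBP3, and above them for SRPK1 and SRSF7.

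Related genes could be compared within a library, where scaling cancels. For 21 ratios between close relatives, listed with the levels above known, 9 ratios were higher in every CXCL10 library than in any TGF-β library, 0 were lower, and 12 overlapped. Taken by same-numbered libraries, 12 ratios were higher with CXCL10 in all 3 pairs and 3 were lower in all 3 (SRSF1 to SRSF9, HNRNPA1 to HNRNPA2B1 and HNRNPA1 to HNRNPA3). Among single genes 22.3% were without overlap in either direction, but that is an unlike measure. No share was computed for ratios between other genes, so these counts of ratios have no background of their own. Which gene stands on top of a ratio was a free choice, and several ratios share a gene. With 3 libraries per group the exact two-sided permutation test cannot go below 0.1. Groups without overlap always reach that value, so it adds nothing to the count of 9. The Benjamini-Hochberg adjusted value of this test over the 21 ratios was 0.233.

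The ratio of SRPK1 to SRPK2 counts was 1.55, 1.44 and 1.69 with CXCL10, against 1.36, 1.06 and 1.19 with TGF-β alone. The ratio of TRA2B to TRA2A was 4.17, 3.19 and 3.39 with CXCL10, against 2.86, 2.86 and 2.75 with TGF-β alone. The ratio of PTBP1 to PTBP3 was 5.31, 4.93 and 5.07 with CXCL10, against 4.29, 4.29 and 4.36 with TGF-β alone. The ratio of PCBP1 to PCBP2 was 0.859, 0.815 and 0.830 with CXCL10, against 0.783, 0.728 and 0.762 with TGF-β alone. Beside these 4 the ratios of PTBP1 to PTBP2, HNRNPAB to HNRNPD, HNRNPDL to HNRNPD, HNRNPH1 to HNRNPH2 and SRSF3 to SRSF7 were higher without overlap. The ratio of SYNCRIP to HNRNPR, whose genes both had positive log2 differences, overlapped, at 1.68, 1.49 and 1.55 with CXCL10, against 1.56, 1.40 and 1.58 with TGF-β alone.

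**Figure D4:**
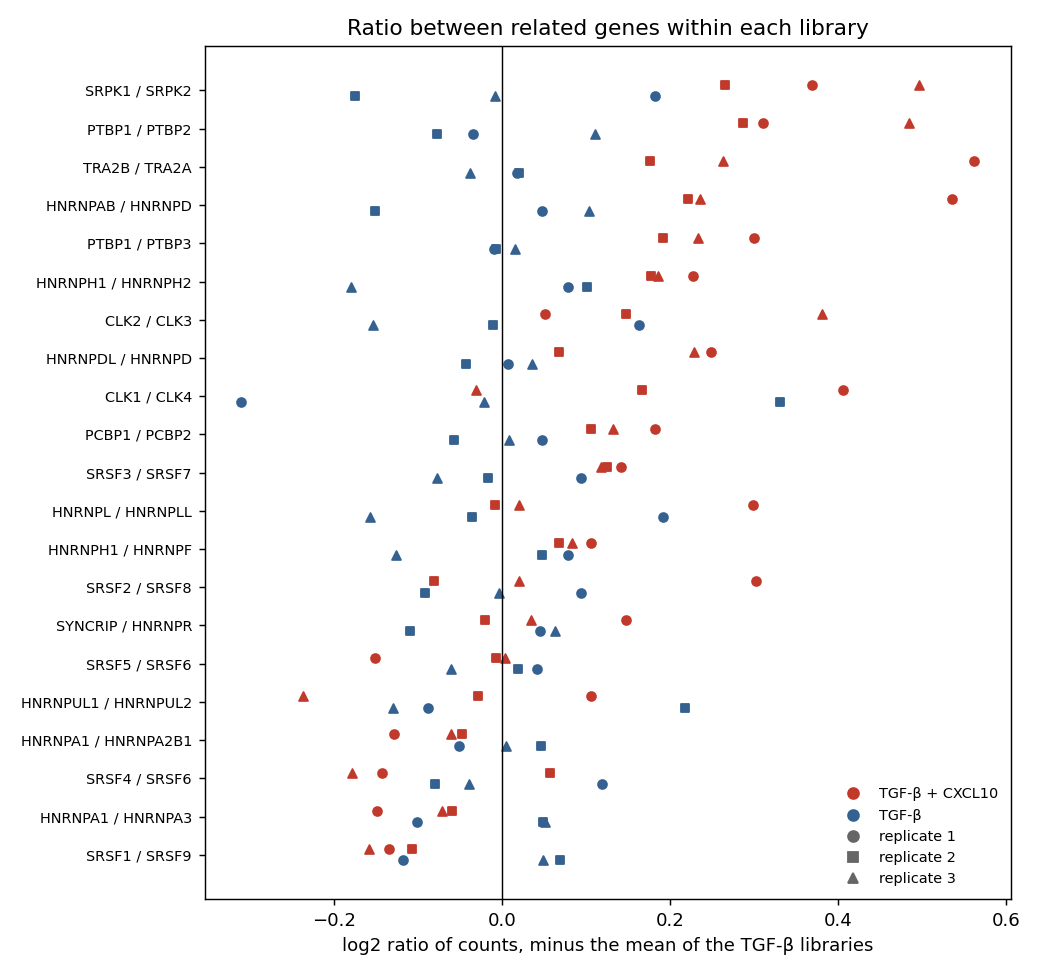
Log2 ratio of counts between 21 pairs of related genes in each library, shown relative to the mean of the 3 TGF-β libraries; red points are TGF-β + CXCL10 libraries, blue points TGF-β libraries, and the shape gives the replicate number. In 9 pairs, among them SRPK1 / SRPK2 and PTBP1 / PTBP3, the red points lie to the right of all blue points.

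Replicate 1 tended to be high in these genes in both groups, and more so in the TGF-β group. In the TGF-β group replicate 1 was the highest library for 36 of 51 tested members (70.6%, beside 39.1% of all tested genes), and exceeded the mean of replicates 2 and 3 by a median of 0.094 (log2), against -0.0022 over all tested genes. In the CXCL10 group it was highest for 26 of 51 (51.0%, beside 37.9% of all tested genes), with a median of 0.039 against 0.0041 over all tested genes. For SRSF3 this difference within the TGF-β group was 0.33, for SYNCRIP 0.32, for HNRNPAB 0.30 and for PTBP1 0.05. Within the CXCL10 group it was 0.08, 0.29, 0.32 and 0.175 in the same order. The changes with CXCL10 were 0.29, 0.22, 0.31 and 0.16. Without CXCL10 replicate 1 and without pairing they were 0.26, 0.11, 0.19 and 0.10. Without TGF-β replicate 1 and without pairing, edgeR called 7 members higher (SRSF3, HNRNPAB, SYNCRIP, HNRNPDL, HNRNPR, SRSF9 and HNRNPA3) and 0 lower, that is 13.7% of the 51 beside 10.7% of all tested genes called higher and 8.61% lower. The paired fit called 16 members higher without replicate 1 of both groups (31.4%, beside 12.7% of all genes higher and 10.9% lower). These included SRSF3, HNRNPAB, SYNCRIP, PTBP1, SRPK1 and TRA2B. Without replicate 2 it called SRSF3 and HNRNPAB (5.66% of all genes higher, 4.67% lower), and without replicate 3 HNRNPAB alone (4.46% higher, 3.02% lower). Each of these paired fits without a replicate number rests on 2 pairs of libraries, so the spread is poorly estimated.

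Other parts of the splicing machinery were described through lists assembled by function, with earlier results of these data known. The counts and medians of the lists are therefore descriptions, and whether a list as a whole changed was not tested. Among core spliceosome genes, the paired fit called 7 of 36 tested rows higher and 0 lower, beside 9.71% of all tested genes called higher and 8.04% lower in that fit, and the list's median log2 change was 0.17, against -0.0054 over all tested genes. These shares are also the background of the lists that follow. U2AF2, the large subunit of the factor that binds the pyrimidine tract, held 129, 108 and 103 CPM with CXCL10, against 108, 82.0 and 94.6 CPM with TGF-β alone (log2 change 0.26, SE 0.06, edgeR adjusted p = 0.00997 paired and 0.242 unpaired). SNRPB, a component of the Sm ring of spliceosomal snRNPs, rose by 0.29 (SE 0.07), SF3B4 of the U2 snRNP by 0.28 (SE 0.08) and PRPF4 of the tri-snRNP by 0.33 (SE 0.09), in the paired fit only (edgeR adjusted p = 0.00997, 0.0232 and 0.0256). Other splicing regulators gave 4 calls higher and 0 lower among 26 tested rows, with a median of 0.022. Among them were the RNA-binding protein EWSR1 (0.34, SE 0.05), the paraspeckle protein SFPQ (0.33, SE 0.05) and KHDRBS1, known as SAM68 (0.19, SE 0.05), with edgeR adjusted p-values of 0.000729, 0.000748 and 0.0280 in that order.

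For the SR-related and nuclear speckle genes, 0 of 21 passed in the paired edgeR fit, with a median of 0.039. The lowest adjusted p there was 0.102, for the kinase DYRK1A, at 39.7, 41.9 and 38.6 CPM with CXCL10 against 40.1, 50.03 and 49.3 CPM with TGF-β alone. The next were SCAF1 (log2 difference 0.17), LUC7L3 (-0.15) and BUD13 (0.33), with adjusted p from 0.111 to 0.162. Of 15 tested rows of nonsense-mediated decay and exon junction genes, EIF4A3, the helicase of the exon junction complex (0.30, SE 0.07), and UPF1, the helicase of decay (0.20, SE 0.05), rose and UPF3A (-0.31, SE 0.10) fell in the paired fit (edgeR adjusted p = 0.00856, 0.0189 and 0.0461). The next lowest p was that of SMG9, at 0.261. The list's median was -0.067. Without the pairing 0 genes of any of these lists passed in the edgeR fit of all 6 libraries, in which the smallest adjusted p of any gene was 0.161.

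Counts and FPKM together give a further value per gene and library. Dividing counts by FPKM and library total gives the length, in bases, that the deposited FPKM implies. It was constant for genes such as HNRNPA0, at 8713 bases in each library, and PCBP1, at 1727 bases, and varied between libraries for others. Over the 46 members with a mean of at least 100 counts, the ratio of the longest to the shortest library had a median of 0.096 (log2), against 0.12 over all 9015 such genes, and 6 members varied by under 0.01. Without overlap between the groups, the implied length was longer with CXCL10 for SRSF3, HNRNPUL1, HNRNPD and ELAVL1 and shorter for SRPK1, that is 4 and 1 of 46 members, beside 4.94% longer and 5.54% shorter over all 9015 genes. HNRNPD and ELAVL1 are given as examples picked after their values were seen. HNRNPD had implied lengths of 1279, 1222 and 1273 bases with CXCL10, against 1191, 1187 and 1203 bases with TGF-β alone, and ELAVL1 2212, 2123 and 2162 bases with CXCL10, against 2009, 2097 and 2086 bases with TGF-β alone. ELAVL1 FPKM was lower in every CXCL10 library, at 29.0, 28.0 and 29.0, against 31.1, 30.9 and 31.7 in the TGF-β libraries, while its CPM overlapped. FPKM and CPM also differ in scaling, as described above. No gene passed a limma test on these log2 lengths (0.0% called with and without pairing), where 458 of all genes (5.08%) and 2 members had an unadjusted p under 0.05 without pairing and 493 genes (5.47%) and 4 members with it. How the authors set the length in FPKM is not given in the sources used here.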

How the data were processed

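Per the labels' protocols, SMARTer mRNA libraries were made from RNeasy-purified RNA. Builds GRCm38 and mm10 come from the submitters' processing notes, although every row is a human Ensembl gene. Aligner, counter and strand setting were not given in the sources used here, and human coordinates and sequences are not used. Per the file headers, the deposited table holds raw counts and FPKM values per gene and library, made by the authors, and the authors' log2 ratio of mean FPKM and p-values, whose test is not stated.

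The main test on the counts was the quasi-likelihood one of edgeR 4.0.16, run in R 4.3.3 (TMM, filterByExpr with a minimum count of 10 and total of 15, Benjamini-Hochberg threshold 0.05 over all tested genes). Standard errors are the log2 change over the root of the F statistic, and 95% intervals use its degrees of freedom. CPM in the text are TMM-scaled. The test without pairing was the planned one and the replicate block its alternative. As deviations from the group mean, libraries with the same number correlated at 0.330, 0.121 and 0.163, each over 0.1. Replicate 1 with replicates 2 and 3 of the other group gave -0.165 to -0.223. CXCL10 replicate 2 with TGF-β replicate 3 gave 0.0825, and CXCL10 replicate 3 with TGF-β replicate 2 gave 0.0803. These values set replicate 1 apart but hardly separate replicates 2 and 3. The numbers were taken to pair the samples, which comes from the data, not the labels, and every paired call rests on it. DESeq2 1.42.0 and limma 3.58.1 (log2(FPKM + 1) and log2(FPKM + 0.1)) were alternatives. Members, gene lists and pairs of relatives were chosen with earlier results of these data known. Library values are given for members called in the paired fit, those whose groups do not overlap, the highest of each class and further members of each class chosen after their values were seen; up to 4 genes of each list are named by lowest p, and 1 of these is not reported here.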

Additional observations from a re-analysis of the deposited data

How the results depend on the processing

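The planned test without pairing called 0 genes, 0 members and 0 genes of the splicing lists, also with RLE size factors and without a filter on low counts. All other counts follow as members higher, list genes higher and lower, and all genes higher and lower; 0 members were lower in any setting run. With the replicate block edgeR gave 4 members, 13 and 1 list genes, and 1162 and 962 genes. Block and RLE factors gave 5, 13 and 1, and 1216 and 968, and block without a filter 7, 18 and 2, and 1391 and 1045; these combinations were added after seeing the data, as was the test of implied lengths. Block and library totals gave 3, 8 and 2, and 877 and 1359. DESeq2 gave 0, 1 and 0, and 163 and 139, and with the block 3, 4 and 0, and 645 and 399. Limma-trend with the block gave 1, 1 and 1, and 337 and 352 at a pseudocount of 1, and 1, 1 and 1, and 332 and 347 at 0.1. Leaving out single libraries without pairing, or both libraries of a number with it, gave 0 to 16 members, 0 to 25 and 0 to 4 list genes, and 0 to 1533 and 0 to 1313 genes. Of single libraries only the loss of TGF-β replicate 1 gave any call (7 members, 15 and 3, and 1302 and 1046); without replicate 1 the paired fit gave 16 members, 25 and 4 list genes, and 1533 and 1313 genes. Without replicate 2 it gave 2 members, 3 and 0 list genes, and 680 and 561 genes, and without replicate 3 it gave 1 member, 6 and 1 list genes, and 539 and 365 genes. The cause of these shifts was not tested, and each paired fit without a replicate number rests on 2 pairs of libraries. The 21 members at 5 CPM or more with an absolute log2 change of at least 0.1 were followed one by one, and members nearer 0, whose sign is less certain, were not. Of 399 recomputed log2 changes of these 21, 349 kept direction and stayed uncalled, 48 kept direction and passed, and 2 turned sign, both for CLK1 (-0.11), at 0.005 without TGF-β replicate 2 and 0.0816 without replicate 2 of both groups with the block; its lowest value was -0.24, without replicate 1 of both groups. HNRNPAB passed in 11 of 19 alternatives, SRSF3 in 8, SYNCRIP in 7 and PTBP1 in 4. The widest intervals were those of the second SYNCRIP and SRSF1 rows, SRPK3 and HNRNPA1L2, all under 5 CPM on average.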
